A study of Mus musculus with 2 samples.

Results

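Glucuronosyltransferases (Ugt), sulfotransferases (Sult) and carboxylesterases (Ces) were examined in MHs and in Sox9+EpCAM- cells, the hepatocytes of injured liver that carry the ductal factor Sox9. Members were all array spots, controls left out, whose gene name in the array design begins with Ugt, Sult or Ces followed by a digit. They came to 51 genes read by 66 probes, out of 30175 genes and 39429 probes: 15 Ugt genes with 19 probes, 17 Sult genes with 24 probes and 19 Ces genes with 23 probes. The MHs were collected from healthy livers of Sox9-EGFP mice, a reporter strain in which Sox9+ cells are marked by GFP, after collagenase perfusion and a Percoll gradient. FACS of GFP+EpCAM- cells gave the Sox9+EpCAM- cells, from Sox9-EGFP mice on a diet with DDC, which injures the bile ducts. Sorting by the reporter defined the second group only, so sorting and injury cannot be told apart. Both samples are given as male, while the age and number of the mice are not given in the sources used here.

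The enzymes of these families prepare lipophilic compounds for excretion, and the hepatocyte is their main site. Ugt enzymes sit in the membrane of the endoplasmic reticulum and attach glucuronic acid, from UDP-glucuronate, to bilirubin, steroids, phenols and drugs. Sult enzymes are cytosolic and transfer sulfate from the donor PAPS to phenols, hormones, steroids and bile acids, and Ces enzymes split ester bonds in drugs, toxins and neutral lipids, mostly in the lumen of the endoplasmic reticulum. In the mouse each family has expanded into tandem gene clusters, so close paralogs are read by similar probes.

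Each sample was hybridised to a single array, so neither an SD nor a test can be given and precision is limited by the number of arrays. The arrays shared 1 slide and 1 scan. Values are given as processed intensity, the fluorescence of a spot after background subtraction. The 75th percentile was 741 for MHs and 1110 for Sox9+EpCAM- cells, and every difference below is a log2 difference, Sox9+EpCAM- cells minus MHs, after each array was divided by its own 75th percentile. Equal intensities on both arrays therefore give a log2 difference of about -0.58. A gene is described by its probe with the highest mean, and a probe not well above background on 1 array has only a bound, against a lowest measurable intensity of 27.8 for MHs and 18.4 for Sox9+EpCAM- cells. A difference of at least 4-fold is called. Probe coordinates are on mm9, and a probe whose coordinates span more than its 60 bases crosses an intron. Brightness depends on the probe, so intensities are compared between arrays and not between genes. Fewer cells expressing a gene and less RNA per cell cannot be told apart in these bulk samples.

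The labels were checked with marker lists. All 10 hepatocyte genes were measurable on both arrays, 1 of them was called lower, and their median log2 difference was -0.96. Of 7 cholangiocyte genes, 2 were at least 4-fold higher, Spp1 at 258 in MHs and 47000 in Sox9+EpCAM- cells and Epcam, the marker the sort selected against, at 139 and 2770. The summed intensity was 1681 for MHs and 54237 for Sox9+EpCAM- cells, most of it Spp1, while the log2 difference was -0.23 for Krt7 and 0.42 for Krt19, and Cftr had 69.6 in MHs and 52.1 in Sox9+EpCAM- cells. Of 6 fibroblast genes, 5 were at least 4-fold higher, with sums of 8727 and 54484. Of 7 leukocyte genes (sums of 23175 and 16230) 2 were called lower and 6 had a difference below 0. Of 5 endothelial genes (sums of 4371 and 2203) 2 were called lower, and all 4 measured on at least 1 array were below 0. Lyve1, an endothelial marker, was well above background on neither array. The part of other cell types in the results below was not tested. Xist had an intensity of 1940 in MHs and was not well above background in Sox9+EpCAM- cells at 16.1, and Ddx3y, Kdm5d, Uty and Eif2s3y had signal well above background in Sox9+EpCAM- cells only, so the MH array goes against its label of male. Of 9 female-biased liver genes outside the 3 families, 8 were called lower (median log2 difference -6.05), whereas of 8 male-biased genes 6 were measured, with a median of 0.73 and 1 lower. Hsd3b5 and Elovl3, the other male-biased genes, were well above background on neither array. Sex, sorting and injury cannot be told apart in this pair of arrays.

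Most genes of the 3 families had a difference or bound below 0, 40 of the 47 measured on at least 1 array. Signal well above background was found for 33 of the 51 genes on both arrays, for 10 in MHs only, for 4 in Sox9+EpCAM- cells only and for 4 in neither. At least 4-fold lower were 20 genes, where 5.57% of 23417 genes measured on at least 1 array were called lower, and 1 gene was at least 4-fold higher, where 5.59% were called higher. A gene measured on the MH array only could only come out lower, which holds for 8 of the 20. Among the 33 genes measured on both arrays 12 were called lower, against 4.75% of all 19235 such genes, and their median log2 difference was -1.66 against -0.19. Of these 33 genes 90.9% had a difference below 0, against 59.9% of all genes. For genes measured on both arrays the median was -1.50 for Ugt, -1.49 for Sult and -2.42 for Ces genes. With bounds included it was -1.43, -2.78 and -1.90, so the order of the families depends on the bounds. Without the Sult2a genes and Sult3a1, which are known to be female-predominant in mouse liver, 13 genes were called lower and the Sult median was -0.92.

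**Figure D1:**
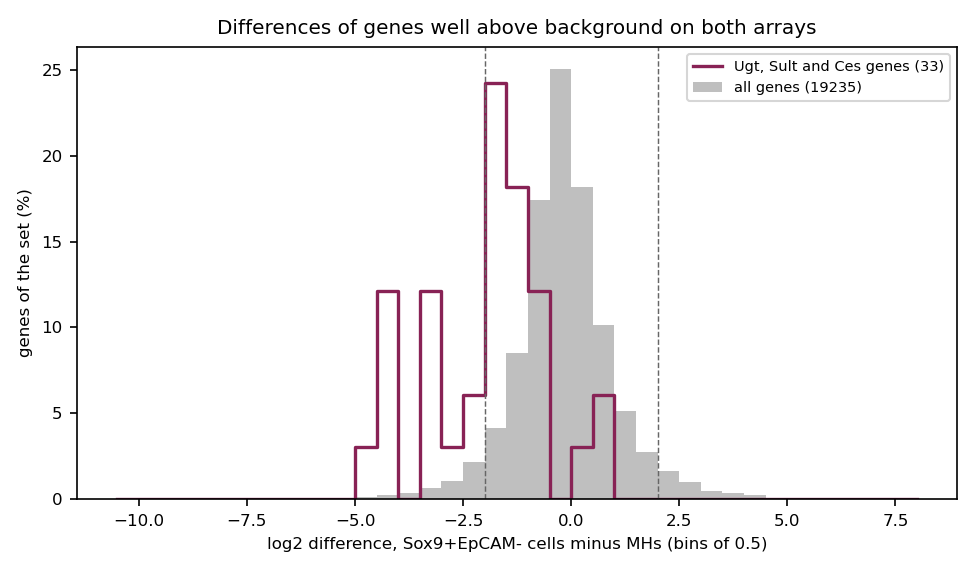
Share of genes (%) in bins of the log2 difference between Sox9+EpCAM- cells and MHs, for the 33 Ugt, Sult and Ces genes (line) and all 19235 genes (bars) measured on both arrays. The dashed lines mark 4-fold; 12 of the 33 lie at or beyond it on the lower side and 0 on the higher side.

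**Figure D2:**
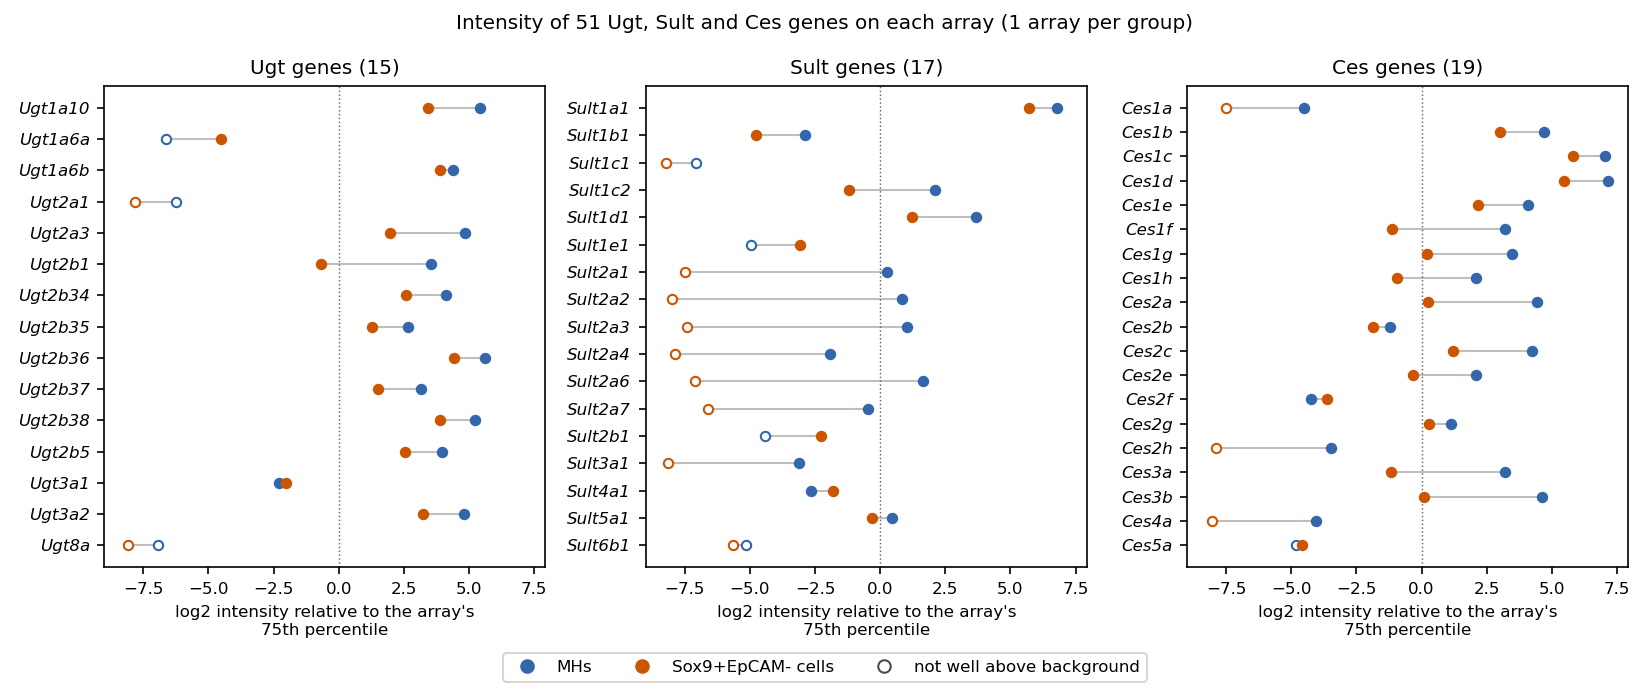
Log2 intensity relative to the 75th percentile of the array (dotted line) for each of the 51 genes, in MHs (blue) and Sox9+EpCAM- cells (orange), 1 array each. Open symbols were not well above background; the 6 Sult2a genes have an open symbol for Sox9+EpCAM- cells only.

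Among the glucuronosyltransferases the Ugt2b genes, whose enzymes conjugate steroids and drugs, all had a difference below 0 at the probes that stand for them. Of these only Ugt2b1 was called lower. Ugt2b1 had an intensity of 8570 in MHs and 693 in Sox9+EpCAM- cells, 18.5-fold lower (log2 difference -4.21). Ugt2a3, a related liver and intestine enzyme, had 21500 and 4300, 7.49-fold lower (-2.90). These were the only Ugt genes called lower, 2 of the 13 measured on at least 1 array. Ugt2b36 had 36500 in MHs and 24000 in Sox9+EpCAM- cells (-1.19), and Ugt2b38 had 27600 and 16300 (-1.34). Ugt2b5 had 11700 and 6490 (-1.43). The differences of these 3 and of the following genes lay within a narrow range, all under 4-fold. Ugt2b37 had 6640 and 3170 (-1.65). Ugt2b34 had 13000 and 6600 (-1.56). The probe that stands for Ugt2b35 had 4680 and 2660 (-1.40).

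Ugt2b35 was read differently by its other probe, which had 1200 in MHs and 3890 in Sox9+EpCAM- cells, 2.16-fold higher (1.11). The probes lie 1167 bases apart, at chr5:87440554-87440613 and chr5:87441721-87441780 (mm9, plus strand) and the first 30 bases of each are printed here, since they give opposite signs. The direction of Ugt2b35 thus depends on the probe.
Ugt2b35, the probe that stands for the gene: gaatgagtagagctcattgacaatgcacta
Ugt2b35, the other probe: ctttatgttttctttttgatcacacataca

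Ugt2b36, Ugt2b37, Ugt2b38 and Ugt2b5 share sequence near their starts. The RefSeq promoter table (GRCm38.p6, another build than the probe coordinates) holds 250 bases before the start of 41 of the 51 genes and 27025 genes in all, and 14 motifs of liver and nuclear receptor factors were searched in them on both strands. The nuclear receptor hexamer AGGTCA lay 22 to 39 bases before the start of Ugt2b36, Ugt2b37, Ugt2b38 and Ugt2b5, inside a stretch of 22 bases that is identical in all 4. In Ugt2b35 it lay 215 bases before the start, and in Ugt2b1 and Ugt2b34 the letters are not in this window. The windows of 60 bases below are shown for this shared stretch, with the hexamer in capitals, and were picked after the matches were seen.
Ugt2b36 promoter, chr5:87092556-87092615, minus strand: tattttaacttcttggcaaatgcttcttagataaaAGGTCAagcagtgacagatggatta
Ugt2b37 promoter, chr5:87254795-87254854, minus strand: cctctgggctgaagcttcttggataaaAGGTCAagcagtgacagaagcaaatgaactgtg
Ugt2b38 promoter, chr5:87424204-87424263, minus strand: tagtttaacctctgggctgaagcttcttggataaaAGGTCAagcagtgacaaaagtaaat
Ugt2b5 promoter, chr5:87140341-87140400, minus strand: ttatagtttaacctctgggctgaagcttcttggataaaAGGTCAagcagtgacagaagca

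Over all 3 families AGGTCA was found in 10 of 41 promoters (24.4%, against 15.8% of all genes). GTTAAT, a core of the HNF1 site, was found in 11 (26.8% against 7.49%). These were Ces3b, Ces5a, Sult1a1, Sult1d1, Sult2a3, Sult2a4, Sult2a6, Ugt1a10, Ugt1a6a, Ugt2a3 and Ugt3a1, some of them called lower and some not. TGAACT, a variant nuclear receptor hexamer, was found in 9 (22.0% against 13.4%), and TATAAA in 7 (17.1% against 14.3%). The STAT motif TTCNNNGAA was found in 4 (9.76% against 8.13%) and the Ahr core GCGTG in 4 (9.76% against 30.9%). No member held CAAAGTCCA, CAAAGGTCA, TTGCGCAA, TTGCAAC, TGACNNNGC (11.5% of all genes), the HNF1 palindrome, the FXR inverted repeat or the PPAR direct repeat. AGGTCA is part of CAAAGGTCA and of both repeats, and GTTAAT is part of the palindrome. A match is a description of these letters and not a binding site.

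In the Ugt1a locus, where each enzyme has a first exon of its own joined to exons that all of them share, Ugt1a10 stood at the edge of the call. Its probe with the higher mean had 31700 in MHs and 11900 in Sox9+EpCAM- cells, 3.99-fold lower, and it passed 4-fold in the deposited table (-2.17). The probe that directly adjoins it had 6800 and 2470, 4.12-fold lower. The 2 probes are thus nearly alike in the difference, although their intensities are not. Ugt1a6b, which belongs to the enzymes for planar phenols, had 15600 and 16300 (-0.52) at chr1:90004249-90004308 (plus strand) and 10400 and 5850 (-1.41) at a probe 111244 bases downstream. The Ugt1a6a probe, at chr1:90116514-90116573, was not well above background in MHs at 7.53 and had 47.9 in Sox9+EpCAM- cells, a bound of 0.20 that turned to -0.25 under normexp background correction and to -0.03 under quantile normalization, so its direction is not settled. It lies beyond the downstream Ugt1a6b probe, at chr1:90115493-90115552, and which isoforms these downstream probes read was not tested. The adjoining Ugt1a10 probes and the upstream Ugt1a6b probe are printed because they lie away from that end.
Ugt1a10, chr1:89952720-89952779: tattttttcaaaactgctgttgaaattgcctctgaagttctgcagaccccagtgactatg
Ugt1a10, chr1:89952780-89952839: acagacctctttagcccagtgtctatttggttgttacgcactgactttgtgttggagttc
Ugt1a6b, chr1:90004249-90004308: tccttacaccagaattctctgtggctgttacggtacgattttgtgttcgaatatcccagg

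The Ugt3a enzymes use sugars other than glucuronic acid. Ugt3a2 had 20800 in MHs and 10500 in Sox9+EpCAM- cells (-1.57), and its other probe had 10400 and 5790 (-1.43). Ugt3a1 had 153 and 270 (0.24). Of this pair only Ugt3a1 had a difference above 0, and neither was called. Ugt2a1, an enzyme of the olfactory epithelium, and Ugt8a, which makes the galactosylceramide of myelin, were not well above background on either array.

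Among the sulfotransferases the largest bounds were all in the Sult2a cluster of chromosome 7, whose enzymes sulfate hydroxysteroids and bile acids. All 6 Sult2a genes, read by 8 probes, were well above background in MHs and none was in Sox9+EpCAM- cells. Sult2a6 had 2300 in MHs and 8.08 in Sox9+EpCAM- cells, at least 187-fold lower. Its other probes had 1600 and 5.54 (at least 130-fold lower) and 880 and 3.72 (at least 71.6-fold lower). None of the 3 Sult2a6 probes was thus measurable in Sox9+EpCAM- cells. Sult2a3 had 1500 and 6.53, at least 122-fold lower. The coordinates of its only probe span 24 bases, fewer than the length of the probe. Sult2a2 had 1310 and 4.31, at least 106.6-fold lower. Sult2a1 had 882 and 6.14, at least 71.8-fold lower. The probes of Sult2a3, Sult2a2 and Sult2a1 were below the measurable level in Sox9+EpCAM- cells as well. Sult2a7 had 538 and 11.3, at least 43.8-fold lower. Sult2a4 had the smallest bound of the cluster, with 197 and 4.70, at least 16.0-fold lower. These bounds are set by the lowest measurable intensity and do not rank the genes. Under normexp background correction, which raises low signals, the log2 differences of the 6 genes were smaller, from -2.24 for Sult2a4 to -5.38 for Sult2a6. Beside them stand the female-biased genes above, among them Cyp2b9 with 28400 in MHs and 272 in Sox9+EpCAM- cells.

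The probes of Sult2a1, Sult2a2 and Sult2a4 cannot be read as independent, because they differ from each other at few bases. Aligned without gaps, the Sult2a1 probe (chr7:14381602-14381661) matched the Sult2a2 probe (chr7:14364926-14364985) at 54 of 59 bases and the Sult2a4 probe (chr7:14495026-14495085) at 51 of 54 bases. A window of 30 aligned bases is printed, with the bases that differ from Sult2a1 in capitals, and Sult2a4 has none there.
Sult2a1: atcttgaatacctagatgtggtcatagaat
Sult2a2: atcttgaatacctGAatAtggtcatagaat
Sult2a4: atcttgaatacctagatgtggtcatagaat

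Within Sult2a6, a pair of probes overlaps on the genome (chr7:14811213-14811272 and chr7:14807923-14811254, minus strand, mm9) and matched at 40 of 42 aligned bases, printed here with the bases that differ from the first in capitals. Placed by these coordinates, the overlapping probes cannot both match the genome in full, and which of them does was not tested. The second of the pair stands for the gene. The remaining probe, at chr7:14835693-14835752, lies apart from them.
Sult2a6, chr7:14811213-14811272: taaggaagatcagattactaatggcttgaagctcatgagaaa
Sult2a6, chr7:14807923-14811254: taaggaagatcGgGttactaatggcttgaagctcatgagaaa

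Outside the cluster, Sult3a1, an amine sulfotransferase that is also female-predominant, had 84.5 in MHs and was not well above background in Sox9+EpCAM- cells at 3.90, at least 6.88-fold lower. Sult1c2, a phenol sulfotransferase, had 3160 and 486, 9.74-fold lower (-3.28). Sult1d1, which sulfates catecholamines, had 9550 and 2560, 5.59-fold lower (-2.48). These 3 genes and the 6 Sult2a genes made up the 9 Sult genes called lower, and the call of Sult3a1 was lost under normexp (-1.59). The second Sult1d1 probe was not well above background in MHs at 18.0, had 31.3 in Sox9+EpCAM- cells and gives no fold. Sult1b1, which sulfates thyroid hormones, had 100 and 40.5 (-1.89), and passed 4-fold under quantile normalization (-2.10) and in the deposited table (-2.07). Sult1a1, the main phenol sulfotransferase of liver, had 82000 and 57400 (-1.10) at one probe and 67900 and 48100 (-1.08) at the other. Both Sult1a1 probes were close to the hepatocyte median of -0.96.

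Sult2b1, which sulfates cholesterol and is known from skin, was the one member called higher. It was not well above background in MHs at 34.8 and had 231 in Sox9+EpCAM- cells, at least 4.43-fold higher. That call was lost under normexp background correction, quantile normalization and the deposited table. Sult1e1, the estrogen sulfotransferase, was not well above background in MHs at 24.1 and had 132 in Sox9+EpCAM- cells, at least 3.17-fold higher (1.66, and 0.45 under normexp). Sult4a1, known from brain, had 117 and 320 (0.87) at one probe, 120 and 121 (-0.57) at a second and no fold at the third, with 12.4 and 29.3. Sult5a1 had 1010 and 901 (-0.75) at one probe and 52.9 and 257 (1.70) at the other. The sign of Sult4a1 and of Sult5a1 thus depended on the probe. Sult1c1 and Sult6b1 were not well above background on either array.

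Among the carboxylesterases measured on both arrays, the Ces3 genes, Ces2a and Ces1f were lower by the widest margin. Ces3b, a liver carboxylesterase, had 18200 in MHs and 1180 in Sox9+EpCAM- cells, 23.1-fold lower (-4.53). Ces3a, its neighbour, had 6830 and 495, 20.7-fold lower (-4.37). The adjacent Ces3 genes were thus lower to a like extent. Ces1f, a triacylglycerol hydrolase, had 6820 and 509, 20.1-fold lower (-4.33). Ces2a had 15800 and 1300, 18.2-fold lower (-4.19). With them, 9 of 19 Ces genes were called lower in all.

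In the Ces1 cluster of chromosome 8, the genes are given in their order on the chromosome. Ces1a had 32.5 in MHs and was not well above background in Sox9+EpCAM- cells at 6.13, at least 2.65-fold lower. Ces1b had 19000 and 9030 (-1.66). Ces1c, the esterase secreted into plasma, had 97900 and 61900 (-1.24). Ces1b to Ces1e, which lie side by side, were under 4-fold, though Ces1e passed it in the deposited table (-2.08). Ces1d, the main triacylglycerol hydrolase of liver, had 106000 and 48600 (-1.71). Ces1e, or egasyn, which holds beta-glucuronidase in the endoplasmic reticulum, had 12500 and 5010 (-1.90). Ces1f, Ces1g and Ces1h follow on the chromosome and were all called lower. Ces1g, a regulator of liver lipids, had 8260 and 1270, 9.74-fold lower (-3.28). Ces1h had 3130 and 577, 8.13-fold lower (-3.02). Ces5a, or cauxin, lies beyond Ces1h, was not well above background in MHs at 26.0 and had 45.9 in Sox9+EpCAM- cells. Its bound of 0.14 turned to -0.31 under normexp background correction, -0.09 under quantile normalization and -0.04 in the deposited table, so its direction is not settled. Its other probe was not well above background in MHs at 20.7, had 33.1 in Sox9+EpCAM- cells and gives no fold.

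**Figure D3:**
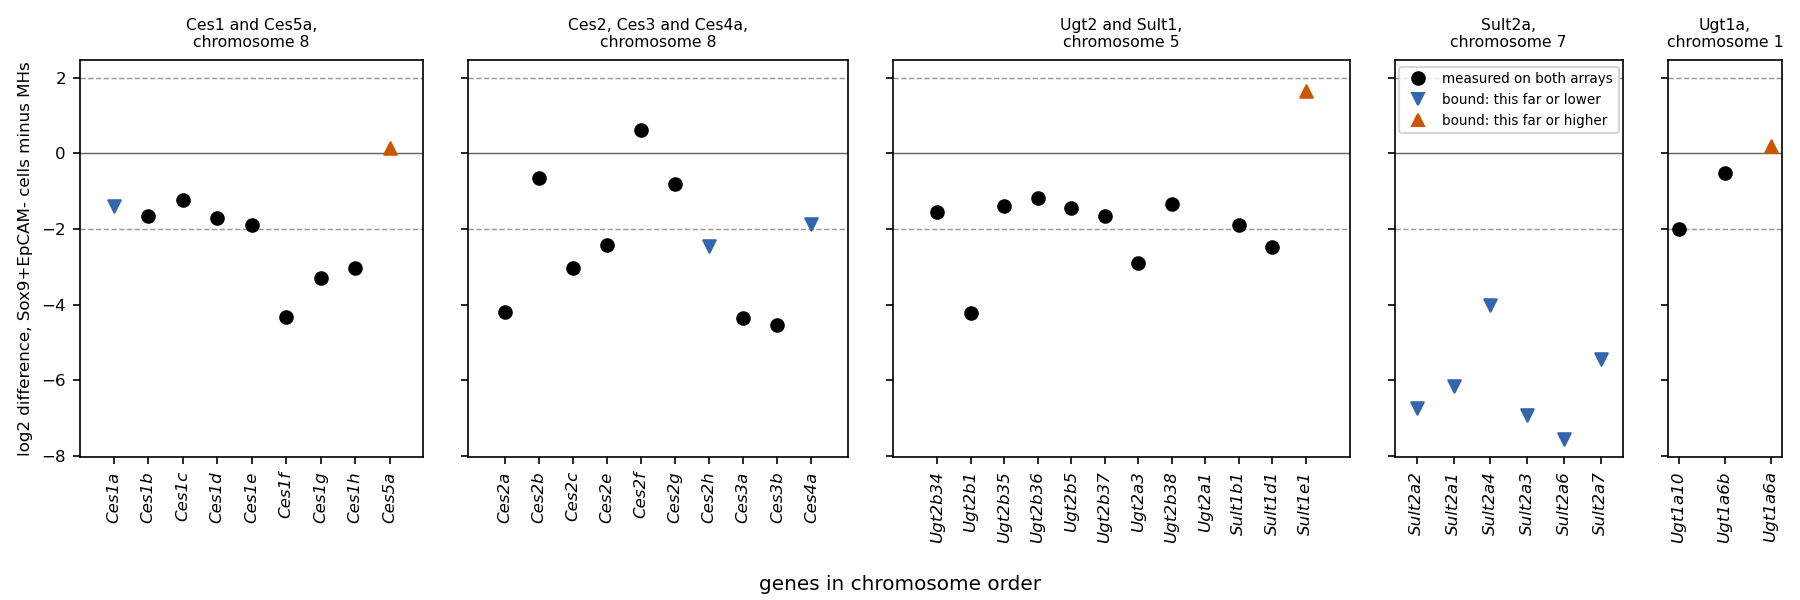
Log2 difference between Sox9+EpCAM- cells and MHs for the genes of 5 clusters, in chromosome order (1 array per group); triangles are bounds and dashed lines mark 4-fold. Ces1b to Ces1e lie from -1.24 to -1.90, Ces1f to Ces1h from -3.02 to -4.33, and all 6 Sult2a genes are bounds beyond the 4-fold line.

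The probes of Ces1b and Ces1c matched at 49 of 55 aligned bases, and those of Ces1d and Ces1h at 44 of 54 bases. They are printed to show how close the probes of these paralogs are, with Ces1h called lower and Ces1b, Ces1c and Ces1d not, all from the minus strand, with bases that differ from Ces1c or from Ces1d in capitals.
Ces1c, chr8:95624607-95628058: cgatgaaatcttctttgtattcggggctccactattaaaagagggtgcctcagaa
Ces1b, chr8:95581314-95584247: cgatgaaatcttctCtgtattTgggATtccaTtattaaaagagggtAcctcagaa
Ces1d, chr8:95693648-95694933: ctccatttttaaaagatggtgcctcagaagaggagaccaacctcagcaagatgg
Ces1h, chr8:95876370-95877360: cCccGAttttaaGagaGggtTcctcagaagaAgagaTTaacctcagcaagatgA
No stretch of 20 bases is shared by these probes and a probe of another gene.

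In the Ces2 cluster, whose enzymes prefer esters of large alcohols with small acyl groups, the genes differed widely. Ces2c had 14100 in MHs and 2590 in Sox9+EpCAM- cells, 8.15-fold lower (-3.03). Ces2e had 3170 and 886, 5.36-fold lower (-2.42), and 964 and 638 (-1.18) at its other probe. Ces2h had 67.3 and was not well above background in Sox9+EpCAM- cells at 4.69, at least 5.48-fold lower, a call lost under normexp (-1.43). Ces2a, Ces2c, Ces2e and Ces2h were called lower and the other 3 were not. Ces2g had 1600 and 1360 (-0.82). Ces2b had 318 and 302 (-0.66). Ces2f had 38.9 and 89.0 (0.61), so of these 3 it alone lay above 0. Ces4a, which lies at the end of the cluster, had 44.7 and was not well above background in Sox9+EpCAM- cells at 4.21, at least 3.64-fold lower. Its bound passed 4-fold under quantile normalization (-2.13) and in the deposited table (-2.04).

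The probes of Ces2a, Ces2c, Ces2g and Ces2h end on or run over the codons of a retention tail for the endoplasmic reticulum, so they read the same place in 4 paralogs. They are printed up to the stop codon, from the plus strand, with the last 4 codons and the stop codon in capitals.
Ces2a, chr8:107265289-107265348: ttctcaggacaagCATGCAGAGCTGTAG
Ces2c, chr8:107378105-107378164: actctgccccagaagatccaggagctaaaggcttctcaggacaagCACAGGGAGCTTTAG
Ces2g, chr8:107492279-107492338: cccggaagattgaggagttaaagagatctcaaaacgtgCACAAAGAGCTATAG
Ces2h, chr8:107544251-107544310: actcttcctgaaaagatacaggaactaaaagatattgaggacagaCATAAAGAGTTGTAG
The Ces2c probe matched the Ces2h probe at 42 of 60 bases and the Ces2g probe at 39 of 53 bases. Ces2c, Ces2a and Ces2h were called lower at this place and Ces2g was not.

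Ces2c has 2 further probes downstream of that stop codon, and neither passed 4-fold. One, at chr8:107378292-107378351, had 198 in MHs and 155 in Sox9+EpCAM- cells (-0.94), and the other, at chr8:107378258-107378317, had 308 and 281 (-0.72). The second shares a stretch of at least 20 bases with a Ces2b probe. The call for Ces2c therefore rests on the probe over the stop codon, which itself shares such a stretch with a probe of another gene, as does the Ces2a probe. The first 30 bases of the downstream probes are shown to tell them from it.
Ces2c, chr8:107378292-107378351: tgaaaaatactctgtattacttatcattct
Ces2c, chr8:107378258-107378317: gcatctgtcacctcagtctttgagctttca

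Of the 12 genes with several probes, 6 had probes measured on both arrays whose differences were more than 1.5-fold apart, and 3 of them (Sult4a1, Sult5a1 and Ugt2b35) had probes of opposite sign. Sult2a6 was the gene with all probes past 4-fold, and in Ces2c, Ces2e, Sult1d1 and Ugt1a10 some were. In the other 7 no probe passed it. In all, 7 of the 66 member probes (10.6%) share 20 or more bases with a probe of another gene, against 7.19% of all probes.

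**Figure D4:**
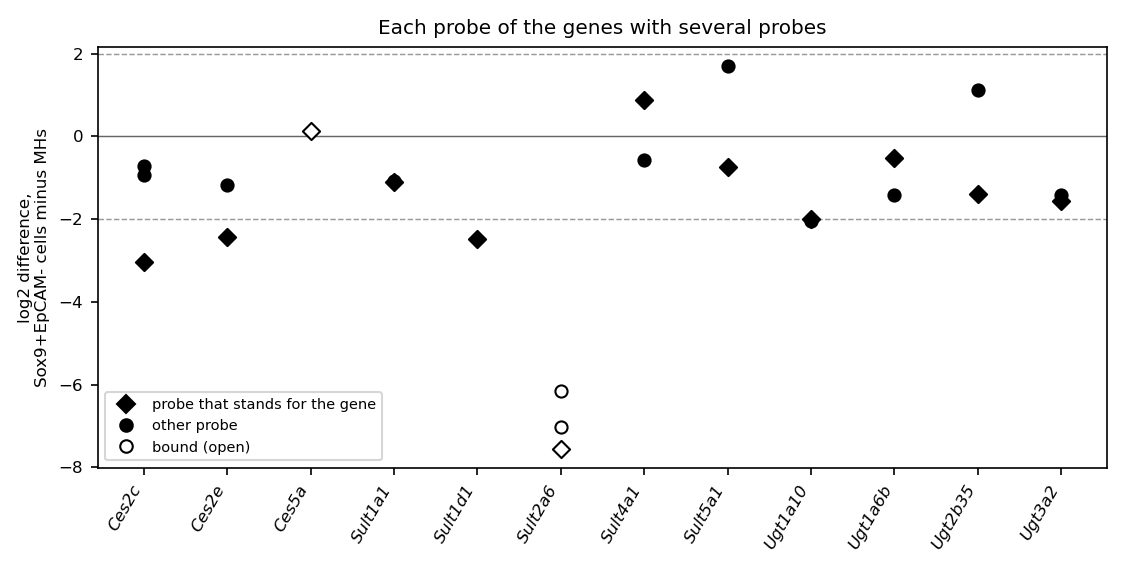
Log2 difference between Sox9+EpCAM- cells and MHs for each probe with a fold in the 12 genes with several probes; diamonds are the probes that stand for the gene and open symbols are bounds. The Sult1a1, Ugt1a10 and Ugt3a2 probes lie together, while those of Ces2c run from -0.72 to -3.03.

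The genes that supply the cosubstrates and other related lists were also examined, and their counts stand beside the 5.57% of all genes called lower and 5.59% called higher. A single called gene in such a list is not read as a result about the list. None of 6 genes of UDP-glucuronate supply and glucuronide hydrolysis was called, and their median log2 difference was -0.65. Of 12 genes of PAPS supply and sulfate ester hydrolysis 3 were called lower, with a median of -0.16. Papss2, a synthase of the sulfate donor PAPS, had 1880 in MHs and 63.6 in Sox9+EpCAM- cells (-5.47). Papss1, the other synthase, had 606 and 690 (-0.40). The 2 PAPS synthases thus differed in their change. Suox, which oxidises sulfite to sulfate, had 1000 and 88.4 (-4.08), and Slc26a1, a sulfate transporter, had 15500 and 5690 (-2.03).

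Of 9 other ester hydrolases 1 was called lower, the paraoxonase Pon1, with 10940 in MHs and 1870 in Sox9+EpCAM- cells (-3.13). Of 8 other conjugating transferases 3 were called lower. Nat1, an arylamine acetyltransferase, had 306 and was not well above background at 8.82, with a bound of -4.64. Inmt had 38400 and 5680 (-3.34) and Nnmt, which methylates nicotinamide, had 30700 and 8470 (-2.44). Of 10 nuclear receptors and factors 1 was called lower, Nr1i3, or CAR, a receptor known to induce genes of drug metabolism, with 23200 and 3480 (-3.32). Nr1i2, or PXR, its relative, had 4130 and 3950 (-0.65). Of 4 efflux pumps 1 was called higher, Abcc4, which was not well above background in MHs at 11.9 and had 180 in Sox9+EpCAM- cells, at least 4.32-fold higher.

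**Figure D5:**
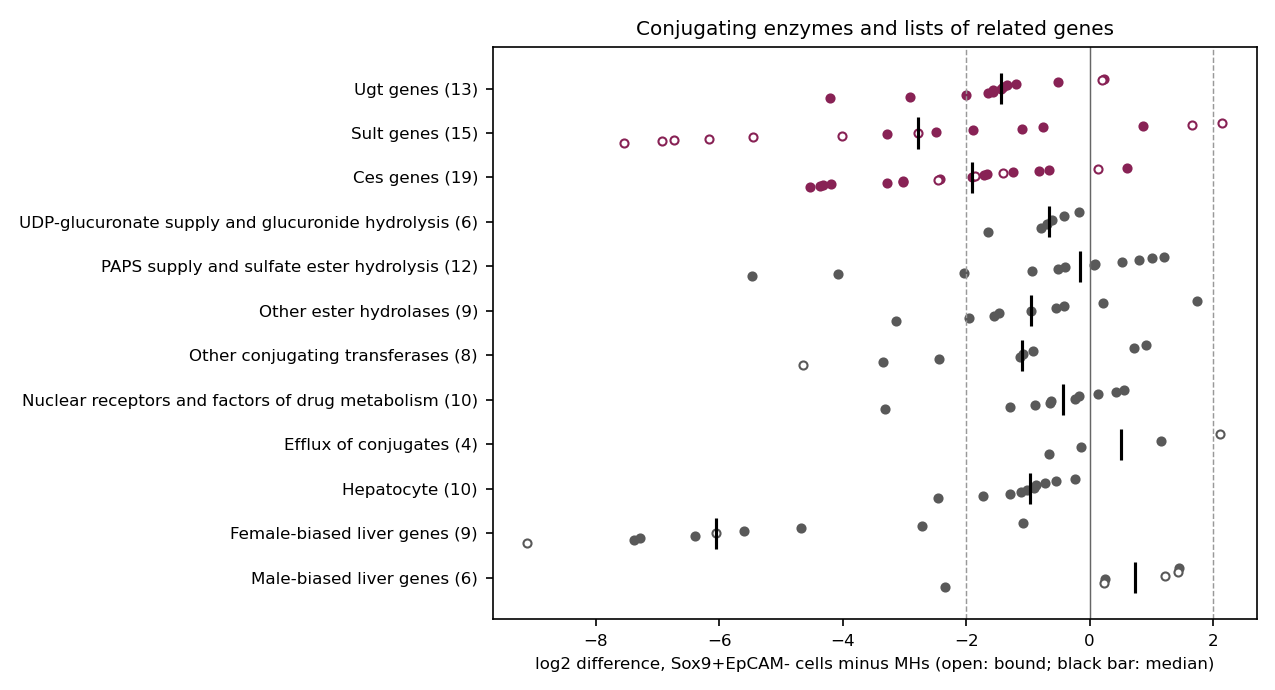
Log2 difference between Sox9+EpCAM- cells and MHs for the 3 families (purple) and for related lists (grey), with 1 point per gene; open points are bounds, black bars are medians and dashed lines mark 4-fold. With bounds the medians are -1.43, -2.78 and -1.90 for the families and -6.05 for female-biased genes; from genes measured on both arrays they are -1.50, -1.49 and -2.42 for the families and -0.96 for hepatocyte genes.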

How the data were processed

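Cy3-labelled RNA of 2 samples was read on Agilent mouse arrays, 1 per sample. The authors deposited the spot intensities of Feature Extraction 10.7.3.1, background-subtracted and not normalized between arrays, and a table of ratio values, each the processed intensity over the median of its array. Probe coordinates are those of mm9 in the array design, and no mm9 annotation of exons or UTRs was used here. Outside the controls, 27523 (MHs) and 32158 (Sox9+EpCAM- cells) of 43020 spots were well above background, and none was saturated. The scanner's error model gave member spots well above background an error of 10% at the median. For probes with at least 8 spots the median SD between spots was 0.08 on the log2 scale, which covers an array and not the mice.

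After removal of controls and of 276 spots with an outlier mark, intensities were divided by the array's 75th percentile, spots of a probe averaged and log2 taken. Where a probe was not well above background on 1 array, its bound used that array's lowest signal well above background, or the probe's own signal if higher, and a probe gives no fold where the bound runs the wrong way. The tools were limma 3.58.1 (R 4.3.3) for normexp with an offset of 50, and pandas 2.3.3, numpy 2.4.6 and matplotlib 3.10.9 in Python 3.11.15 for the rest, and the procedure was tested on simulated data. Each member well above background on at least 1 array is named, and of the pathway lists those past 4-fold, with Papss1 and Nr1i2 chosen after their values were seen. The members and lists were chosen with earlier results of these data known. All 51 names are current symbols in RefSeq (GRCm38.p6), from which the promoters were taken. Probe alignments were ungapped. The alternatives were 12 other settings and, added after the data were seen, leaving out the Sult2a genes and Sult3a1.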

Additional observations from a re-analysis of the deposited data

How the results depend on the processing

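The count of 20 genes at least 4-fold lower became 12 when only genes above background on both arrays were kept, 36 at a threshold of 2-fold, 11 at 10-fold and 13 without the Sult2a genes and Sult3a1, a choice made after seeing the data. Under the other alternatives it stayed within 1.5 times. Over these settings at 4-fold, the share of all genes called lower ran from 2.82% (normexp) to 6.67% (deposited table). The share called higher ran from 2.61% (normexp) to 8.32% (no bound). Of genes measured on both arrays, 78.8% of the members and 17.4% of all genes had a difference below -1. The share of all genes past 10-fold was not computed. The count of 1 gene higher became 0 under normexp background correction, quantile normalization, the deposited table, genes above background on both arrays and a 10-fold threshold, and 2 with no bound or a 2-fold threshold. The Sult median of -2.78 became -1.49 with genes above background on both arrays, -2.18 without probes that share 20 bases and -0.92 without the Sult2a genes and Sult3a1, and the Ces median of -1.90 became -2.99 with no bound. Normexp lost the calls of Ces2h, Sult3a1 and Sult2b1, and moved 11 genes by over 1.5-fold, among them all 6 Sult2a genes and Sult1e1. When a gene was the median of its probes, Ces2c (-0.94) and Ces2e (-1.80) were not called and Sult5a1 turned from -0.75 to 0.47. Leaving out probes that share 20 bases removed Ces2a, Sult2a1, Sult2a2 and Sult2a4, which have no other probe, so they had no value there, and Ces2c, read by another probe (-0.94), was not called. Lower calls were gained by Ces4a and Sult1b1 under quantile normalization (-2.13 and -2.10), by these (-2.04 and -2.07), Ces1e (-2.08) and Ugt1a10 (-2.17) in the deposited table, by Ugt1a10 with scaling to the median (-2.01) and the median of its probes (-2.02), and by Ces1a (-2.99) and Ces4a (-3.99) with no bound. Scaling to Gapdh moved the median of all genes by 0.27 and the deposited table by -0.18. Ces5a and Ugt1a6a, bounds of 0.14 and 0.20, turned below 0 under normexp (-0.31 and -0.25) and quantile normalization (-0.09 and -0.03), and Ces5a also in the deposited table (-0.04). The deposited table and scaling to Gapdh or to the median divide the same intensities by another constant per array, so they move all differences nearly alike. The causes of the other changes were not tested. Leaving out a replicate and blocking on the slide were not possible with 1 array per group. No paired analysis was possible because there is 1 sample per group. The lowest measurable intensity limits the bounds of the Sult2a genes.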
